A study of Mus musculus with 22 samples.

Results

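Cells that divide copy their DNA in S phase and part the copies in mitosis, and each step has its own genes. Nucleotide enzymes, the MCM helicase and DNA polymerases serve replication, while cyclin B with Cdk1, the Aurora and Polo kinases, kinetochore proteins and spindle motors serve mitosis. E2F factors are known to drive many replication genes and the DREAM and MuvB complexes to time many mitotic ones, and microglia of the healthy adult retina divide rarely.

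The 43 genes described here are a list of cell cycle genes, 43 of the 35596 genes in the data. They hold 17 genes of DNA replication, 25 genes of mitosis, and Stmn1, which encodes the microtubule regulator stathmin. All 43 passed the filter on low counts, which was run over the 4 groups together, as did 12415 genes in all. The data are bulk RNA-seq of retinal microglia from 12-week-old mice that had received apoptotic neurons into the vitreous, 24 hours before profiling per the file headers. The 4 groups are Apoe-/- phagocytic cells (6 libraries), Apoe-/- non-phagocytic cells (6), wild-type phagocytic cells (5) and wild-type non-phagocytic cells (5), the wild type being C57BL/6. Every group received the neurons, and no uninjected retina is among the samples. Apoe encodes the lipid carrier apolipoprotein E, and phagocytic cells are those in which Alexa488 was detected. A library is a pool of 5 or 6 retinas of 1 sex and genotype, with 100 to 500 phagocytic cells collected. The sex of each pool is not given in the sources used here.

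Libraries held 1131239 to 3643674 reads in annotated genes, and satellite-like predicted genes took 9.14% to 51.7% of them. Apoe averaged 17.4 ± 9.5 CPM in Apoe-/- phagocytic and 10.3 ± 4.2 CPM in Apoe-/- non-phagocytic libraries (SD, n = 6 each), against 2255 ± 1623 and 1162 ± 297 CPM in wild-type phagocytic and non-phagocytic libraries (n = 5 each). CPM is a gene's estimated count scaled to a common library size, with TMM adjustment between libraries. All 9 microglia markers checked, among them Fcrls, Cx3cr1, P2ry12 and Tmem119, were detected in every library. Their summed level ran over 3698 to 10320 CPM in Apoe-/- phagocytic, 4447 to 10850 in Apoe-/- non-phagocytic, 3943 to 10960 in wild-type phagocytic and 3920 to 12090 in wild-type non-phagocytic libraries. A read difference in bulk cells does not tell fewer cycling cells from less RNA per cycling cell.

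The 17 replication genes fall into 3 roles. Tk1, Tyms, Rrm1 and Rrm2 make nucleotides; Cdc6, Mcm2 to Mcm7, Cdc45 and Gins2 load and run the helicase that opens DNA; and Pcna, Pola1, Pole and Uhrf1 work at the fork. The 25 mitosis genes fall into 4. Cdk1 with its cyclins Ccna2, Ccnb1 and Ccnb2, Plk1, Aurka, and Aurkb with its partners Birc5 and Cdca8 are kinases and partners that drive entry and chromosome alignment, and Cdca3 was grouped with them. Bub1, Bub1b, Cenpe and Cenpf act at the kinetochore and its checkpoint, and Cdc20 and Ube2c with the anaphase-promoting complex. Tpx2, Kif11, Kif20a, Kif23, Nusap1, Prc1 and Hmmr build the spindle or divide the cell, and Mki67 and Top2a act on mitotic chromosomes.

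Replication transcripts were mostly more abundant than mitotic ones, with some overlap between the classes. On the length-corrected TPM scale, which scales transcripts to the same total in every library, the highest medians over the 22 libraries were those of Pcna, the sliding clamp of the replication fork, with 89.3 TPM and of Mcm3, a subunit of the MCM helicase ring, with 86.8 TPM. Pola1, which encodes the catalytic subunit of the polymerase that makes primers, followed with 62.0 TPM. That value sums all Pola1 transcripts, and only 51.4% of Pola1 reads came from protein-coding ones. It therefore does not give the rank of the coding mRNA. Stmn1 had a median of 36.9 TPM. The highest mitotic genes were Cdk1, the kinase that drives entry into mitosis, with a median of 16.99 TPM and Top2a, the enzyme that untangles chromosomes, with 11.9 TPM. The replication genes Cdc6, Pole, Rrm2 and Cdc45 lay below both, at 5.18 to 11.38 TPM. Mki67, the proliferation antigen, had 2.11 TPM, and Cenpe, a kinetochore motor, was lowest with 0.63 TPM. A replication gene had a median of 161 reads per library (30 to 454.5 over the 17 genes) and a mitosis gene a median of 17.7 (3 to 53.9 over the 25), so the mitotic values are the less precise.

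The start regions of 35 of the 43 genes were matched in the RefSeq promoter table (build GRCm38.p6), 14 of replication and 21 of mitosis, and the 250 bases before each start were searched on both strands. The E2F letters TTTCCCGC, TTTCGCGC, TTTGCCGC or TTTGGCGC stood in 6 of the 14 replication genes (42.9%; Cdc6, Mcm5, Mcm6, Mcm7, Pola1 and Uhrf1), in 1 of the 21 mitosis genes (4.76%; Cdk1) and in 2.16% of 27025 genes. The CHR letters TTTGAA, the core of the element that MuvB complexes bind, stood in 2 of 14 (14.3%; Cdc45 and Mcm2), in 8 of 21 (38.1%; Ccnb2, Cdc20, Cdk1, Kif11, Mki67, Prc1, Top2a and Ube2c) and in 18.3% of all genes. The CCAAT letters, the box bound by NF-Y, stood in 78.6% of the replication genes, 90.5% of the mitosis genes and 37.5% of all. A match is a run of letters and not a shown binding site. 4 of these regions are printed because their genes lead the comparisons or carry several matches, with every E2F, CHR and CCAAT match in capitals and overlapping matches run together. Pola1 is at chrX:93632156-93632405 on the minus strand and Mcm6 at chr1:128359706-128359955 on the minus strand. Ube2c is at chr2:164769679-164769928 on the plus strand and Ccnb2 at chr9:70421555-70421804 on the minus strand. All are given 5′ to 3′ on the gene's strand, ending at the base before the RefSeq start.
Pola1: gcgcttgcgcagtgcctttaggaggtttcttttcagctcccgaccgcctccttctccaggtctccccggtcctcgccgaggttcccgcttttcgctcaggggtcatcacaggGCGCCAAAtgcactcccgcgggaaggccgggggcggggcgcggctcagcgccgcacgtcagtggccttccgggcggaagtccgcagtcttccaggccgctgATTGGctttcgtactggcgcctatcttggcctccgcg
Mcm6: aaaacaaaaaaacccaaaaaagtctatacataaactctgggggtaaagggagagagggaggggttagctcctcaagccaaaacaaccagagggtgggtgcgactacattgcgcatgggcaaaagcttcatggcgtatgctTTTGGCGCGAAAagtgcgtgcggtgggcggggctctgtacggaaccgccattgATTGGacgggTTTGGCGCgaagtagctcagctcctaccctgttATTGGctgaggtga
Ube2c: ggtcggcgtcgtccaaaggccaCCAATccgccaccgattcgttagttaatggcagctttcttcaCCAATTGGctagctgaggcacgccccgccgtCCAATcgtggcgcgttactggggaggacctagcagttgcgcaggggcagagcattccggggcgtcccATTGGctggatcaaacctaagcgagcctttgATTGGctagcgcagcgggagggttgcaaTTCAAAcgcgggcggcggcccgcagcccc
Ccnb2: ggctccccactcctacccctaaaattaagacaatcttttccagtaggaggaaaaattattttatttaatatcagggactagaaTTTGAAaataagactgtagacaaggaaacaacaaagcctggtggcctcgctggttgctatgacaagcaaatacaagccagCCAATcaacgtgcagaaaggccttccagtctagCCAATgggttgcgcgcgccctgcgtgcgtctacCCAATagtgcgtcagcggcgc

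The first question is whether cells that took up neurons differed from those that did not. In Apoe-/- mice, both classes were lower in phagocytic cells. The summed level of the 17 replication genes was 1083 ± 318 CPM in Apoe-/- phagocytic and 1693 ± 451 CPM in Apoe-/- non-phagocytic libraries (SD, n = 6 each), with ranges of 679 to 1601 and 1101 to 2356 CPM. The 25 mitosis genes summed to 178 ± 63.8 CPM in phagocytic libraries (119 to 269), against 318 ± 102 CPM in non-phagocytic ones (184 to 442). The ranges overlap in both classes. On the TPM scale replication sums were 282 to 780 in phagocytic libraries, inside the 278 to 1124 of non-phagocytic ones. Mitosis sums were 55.6 to 152.5 TPM, inside 46.4 to 239. Taken by pool number, each phagocytic library had the lower replication sum in CPM, and for mitosis pool 4 went the other way. In TPM the phagocytic replication sum was higher in pools 2 (383 against 367) and 5 (282 against 278). For mitosis in TPM, pools 4 and 5 went the other way. The labels do not say whether same-numbered pools share retinas.

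Gene by gene, all 17 replication genes and 23 of the 25 mitosis genes had lower estimates in Apoe-/- phagocytic cells, as did Stmn1. The median log2 fold change was -0.77 for replication and -0.82 for mitosis, beside -0.02 for all genes tested, of which 52.2% were lower. With the filter and fit run on the Apoe-/- libraries alone, only 17 mitosis genes passed the filter, all lower (median -0.85). The replication median was then -0.78. Only Pola1 passed the test (edgeR's quasi-likelihood test, Benjamini-Hochberg adjusted p at most 0.05), in a comparison in which 0.467% of all genes were called in either direction. At an unadjusted p under 0.05, 9 replication and 4 mitosis genes were lower, against 4.44% of all genes, and no member was higher at that level. DESeq2 called the same 1 gene. With the pool number as a replicate block, edgeR called 6 members (Rrm2, Mcm3, Mcm6, Mcm7, Cdc45 and Pola1) among 256 genes. No member separated the groups without overlap, as 0.346% of all genes did in this direction.

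**Figure D1:**
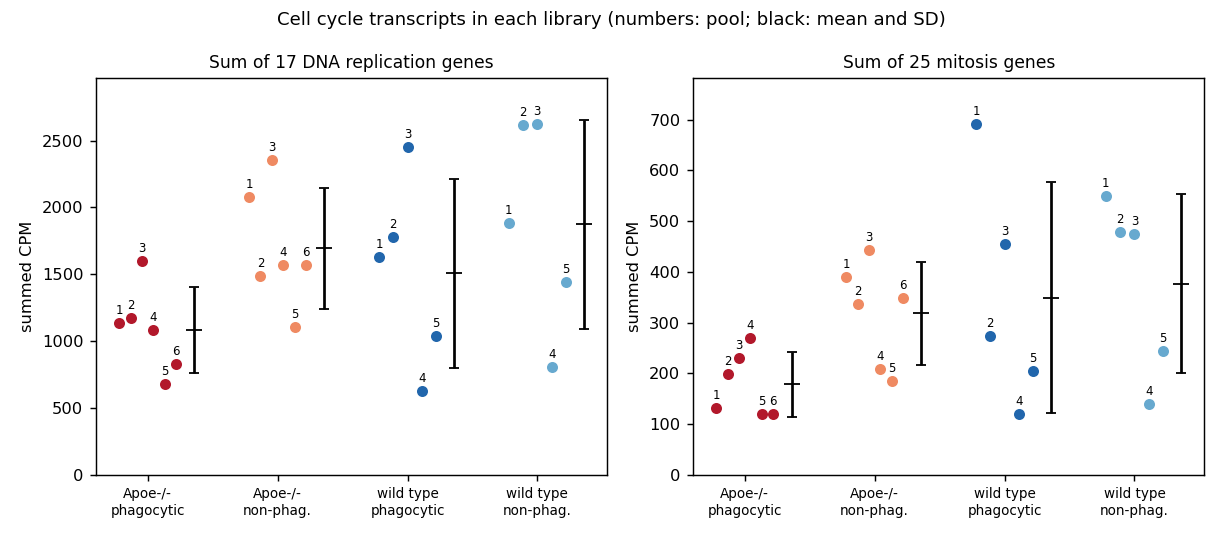
Summed CPM (y axes) of the 17 replication genes (left) and the 25 mitosis genes (right) in each of the 22 libraries, by group. Points are libraries with their pool number, and black marks are mean and SD. Apoe-/- phagocytic libraries reach at most 1601 and 269 CPM, while pool 4 of the wild type is lowest of its genotype in both sorts.

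Among the replication fork genes, Pola1 (chrX:93304767-93632155, minus strand, mm10) was the member that passed. It had 33.0, 54.7 and 89.2 CPM (lowest, median, highest) in Apoe-/- phagocytic libraries and 87.2, 115 and 143 CPM in Apoe-/- non-phagocytic libraries. The groups overlapped by 1 library: phagocytic pool 2 (89.2 CPM) lay just above non-phagocytic pool 5 (87.2 CPM). The log2 fold change was -1.08 ± 0.23 (SE; 2.11-fold lower, adjusted p = 0.0292 by edgeR). The call was lost when any of 10 of the 12 libraries was left out, with adjusted p from 0.00712 to 0.1 over the 12. It held without Apoe-/- phagocytic pool 2 or non-phagocytic pool 5.

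The Pola1 reads came from more than the coding transcript, as did those of some other members. Over all libraries, coding transcripts held 51.4% of Pola1 reads, 58.4% for Pole, 51.9% for Ccnb1 and 65.1% for Prc1. The shares were lowest for Kif23 (27.5%) and Tyms (44.9%). The class medians were 87.4% for replication and 93.3% for mitosis. Besides the coding Pola1-201, the annotation holds Pola1-202, a processed transcript with no protein. Its share of Pola1 reads was 15.1% to 53.9% in Apoe-/- phagocytic and 29.7% to 72.5% in Apoe-/- non-phagocytic libraries. Among the Apoe-/- libraries it was highest in non-phagocytic pools 2 and 5, the libraries with most satellite-like reads (51.7% and 47.6%). High shares also stood at fewer such reads: wild-type phagocytic pool 4 had 58.9% at 20.6%, and wild-type non-phagocytic pool 1 had 54.9% at 27.4%. The coding transcript alone had 29.1 ± 8.29 CPM in phagocytic pools and 53.6 ± 18.1 CPM in non-phagocytic libraries. Its log2 fold change was -0.92 ± 0.29, with an adjusted p of 0.224 that missed the threshold. The part of the satellite-like reads in the Pola1 result was not tested. Without Apoe-/- non-phagocytic pools 2 and 5 the log2 fold change was -1.10 with an adjusted p of 0.0949 by edgeR.

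The other fork genes were lower too, none past the threshold. Pole, the polymerase of the leading strand, had 7.14, 17.6 and 36.0 CPM in Apoe-/- phagocytic and 21.6, 34.7 and 82.5 CPM in Apoe-/- non-phagocytic libraries, a log2 fold change of -1.10 ± 0.45 (adjusted p = 0.395 by edgeR). Pcna had the smallest difference of the fork genes, at -0.25 ± 0.27, and the maintenance methylation factor Uhrf1 lay between.

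All 9 genes of origin licensing and the helicase were lower in Apoe-/- phagocytic cells, with a median log2 fold change of -0.77, and 6 had an unadjusted p under 0.05. Cdc45, which activates the helicase, had 2.68, 12.7 and 24.1 CPM in phagocytic pools and 14.9, 25.5 and 76.0 CPM in non-phagocytic libraries. Phagocytic pools 1, 5 and 6 lay below every non-phagocytic library for this gene, and pools 2, 3 and 4 did not. Its log2 fold change of -1.35 ± 0.53 did not pass (edgeR adjusted p = 0.367). Mcm3 ranged over 68.7 to 296 CPM in phagocytic pools and 194 to 299 CPM in non-phagocytic libraries, with phagocytic pool 3 near the highest non-phagocytic library and the other 5 below every one of them.

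The 4 genes of nucleotide supply were lower by a median of -0.60. Rrm2, the regulatory subunit of ribonucleotide reductase, had 4.46, 8.03 and 17.1 CPM in Apoe-/- phagocytic and 6.69, 20.8 and 52.3 CPM in Apoe-/- non-phagocytic libraries. Its log2 fold change, -1.49 ± 0.66, was the lowest estimate of the replication class and missed the threshold.

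In mitosis, the kinetochore, checkpoint and anaphase genes were lower in Apoe-/- phagocytic cells in 6 of 6 cases (median -1.13), and the kinases, cyclins and partners in 9 of 10 (median -0.86). Cenpf, a kinetochore protein made late in the cycle, had 3.57, 10.03 and 12.3 CPM in phagocytic pools and 10.7, 20.8 and 42.4 CPM in non-phagocytic libraries. Non-phagocytic pools 1 and 4 (10.8 and 10.7 CPM) lay within the phagocytic range and the other 4 above it. The log2 fold change was -1.20 ± 0.38 (edgeR adjusted p = 0.198).

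Plk1, the Polo kinase of spindle assembly and mitotic exit, was at 0 in phagocytic pools 2 and 4 and at most 2.48 CPM elsewhere in that group. Non-phagocytic libraries had 0.623, 6.20 and 16.2 CPM, and only pool 5 fell into the phagocytic range. The log2 fold change of -2.60 ± 0.93 rests on few reads and had an adjusted p of 0.287 by edgeR. Plk1 was not among the 17 mitosis genes that passed the filter in the Apoe-/- libraries alone. Prc1, which bundles microtubules of the central spindle, had 4.14 to 12.0 CPM in phagocytic pools and 4.36 to 37.4 CPM in non-phagocytic libraries, at -1.46 ± 0.48.

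The chromosome genes Mki67 and Top2a, both common marks of cycling cells, had smaller estimates. Mki67 was at -0.59 ± 0.50, with 8.03 to 39.0 CPM in Apoe-/- phagocytic and 14.9 to 51.8 CPM in Apoe-/- non-phagocytic libraries. Top2a was at -0.70 ± 0.54 and Stmn1 at -0.74 ± 0.54. The members with higher estimates were the spindle motor Kif20a (0.63 ± 0.76) and Cdca3, a factor for mitotic entry (0.22 ± 0.70), each with an SE above its change. For these genes the groups overlap throughout.

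**Figure D2:**
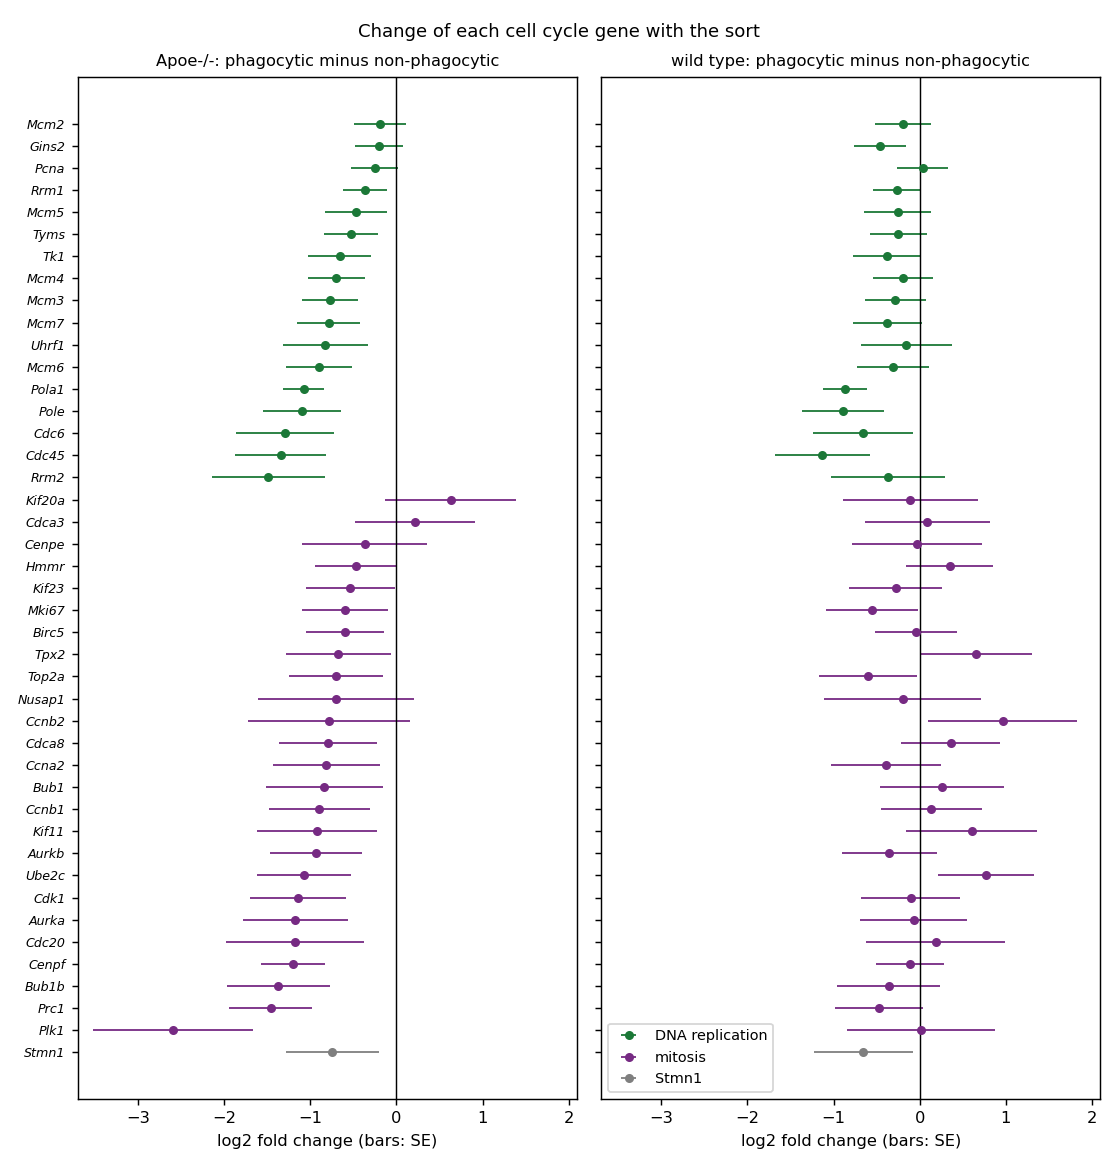
Log2 fold change (x axis, with SE) of each of the 43 genes (y axis), phagocytic minus non-phagocytic, in Apoe-/- (left) and wild-type (right) microglia. In Apoe-/- cells 41 of 43 points lie below 0, and in wild-type cells the 17 replication genes do except Pcna, while the mitosis genes fall on both sides.

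In wild-type mice the replication genes were again mostly lower in phagocytic cells, by less, and the listed mitosis genes showed no common direction. Replication genes summed to 628, 1035, 1631, 1781 and 2452 CPM in wild-type phagocytic libraries, against 803, 1440, 1882, 2617 and 2623 CPM in the wild-type non-phagocytic ones. Mitosis genes summed to 120, 205, 273, 455 and 692 CPM in phagocytic pools and to 139, 244, 476, 478 and 549 CPM in non-phagocytic libraries. The groups overlap over nearly their whole ranges, and pool 4 was lowest in both sorts. Taken by pool number, each phagocytic library had the lower replication sum in CPM, and for mitosis pool 1 went the other way. In TPM the phagocytic replication sum was higher in pool 4 (307 against 300) and level in pool 1 (781 in each sort). For mitosis in TPM, pools 1 and 5 went the other way. Whether same-numbered pools share retinas is not given in the labels.

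Of the replication genes, 16 of 17 were lower, with a median log2 fold change of -0.31. Of the mitosis genes, 14 were lower and 11 higher, with a median of -0.04, beside -0.01 for all genes. None of the 43 passed edgeR's test, in a comparison that called 0.209% of all genes. 2 had an unadjusted p under 0.05, Pola1 and Cdc45, and both were lower, as were 3.14% of all genes. DESeq2 called 0 and also had 2 at that level. With the pool number as a replicate block, edgeR called 1 member, Pola1, among 135 genes. No member was without overlap, against 0.636% of all genes in the lower direction.

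Pola1 had 40.3, 52.3, 54.1, 64.1 and 77.3 CPM in wild-type phagocytic libraries and 65.0, 71.2, 103, 136 and 150 CPM in wild-type non-phagocytic libraries. Only phagocytic pool 3 reached into the non-phagocytic range, above pools 4 and 5. The log2 fold change was -0.87 ± 0.25 (edgeR adjusted p = 0.214). Cdc45 had 7.63, 15.9, 17.6, 42.5 and 44.1 CPM in phagocytic pools and 22.6, 24.03, 68.9, 77.2 and 87.2 CPM in non-phagocytic libraries, at -1.13 ± 0.55. Pole followed at -0.89 ± 0.48.

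Among mitosis genes of the wild type, phagocytic pool 1 stood high. Ube2c, the ubiquitin-conjugating enzyme that works with the anaphase-promoting complex, had 5.74, 9.32, 10.997, 17.8 and 32.1 CPM in wild-type phagocytic libraries, the last in pool 1. Wild-type non-phagocytic libraries had 1.61, 5.58, 9.26, 12.2 and 16.0 CPM. Its log2 fold change was 0.77 ± 0.55 (edgeR adjusted p = 0.833).

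Ccnb2, a B-type cyclin, had 0, 4.84, 7.33, 11.5 and 12.0 CPM in phagocytic pools and 0.858, 1.07, 3.32, 4.19 and 8.52 CPM in non-phagocytic libraries, at 0.97 ± 0.87. Plk1 was at 20.1 CPM in phagocytic pool 1 and 0.956 to 7.92 CPM in the other 4. Without phagocytic pool 1, 22 of 25 mitosis genes and 17 of 17 replication genes were lower in wild-type phagocytic cells, with medians of -0.39 and -0.38. Other libraries moved these medians the other way: without phagocytic pool 4, 8 of 25 mitosis genes were lower (median 0.22), and without non-phagocytic pool 1 also 8 of 25 (median 0.17). The mitosis median was likewise above 0 without phagocytic pool 2 or 5 or non-phagocytic pool 2 or 3, at 0.01 to 0.08. The replication median stayed below 0 but ran over -0.52 to -0.11, closest to 0 without phagocytic pool 4 and furthest without non-phagocytic pool 4. Pool 1 also had the 2 lowest ratios of replication to mitosis sums of all 22 libraries, 2.36 in the phagocytic and 3.43 in the non-phagocytic library. Mki67 was at -0.55 ± 0.53, Top2a at -0.60 ± 0.57 and Stmn1 at -0.66 ± 0.58 in the wild type.

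**Figure D3:**
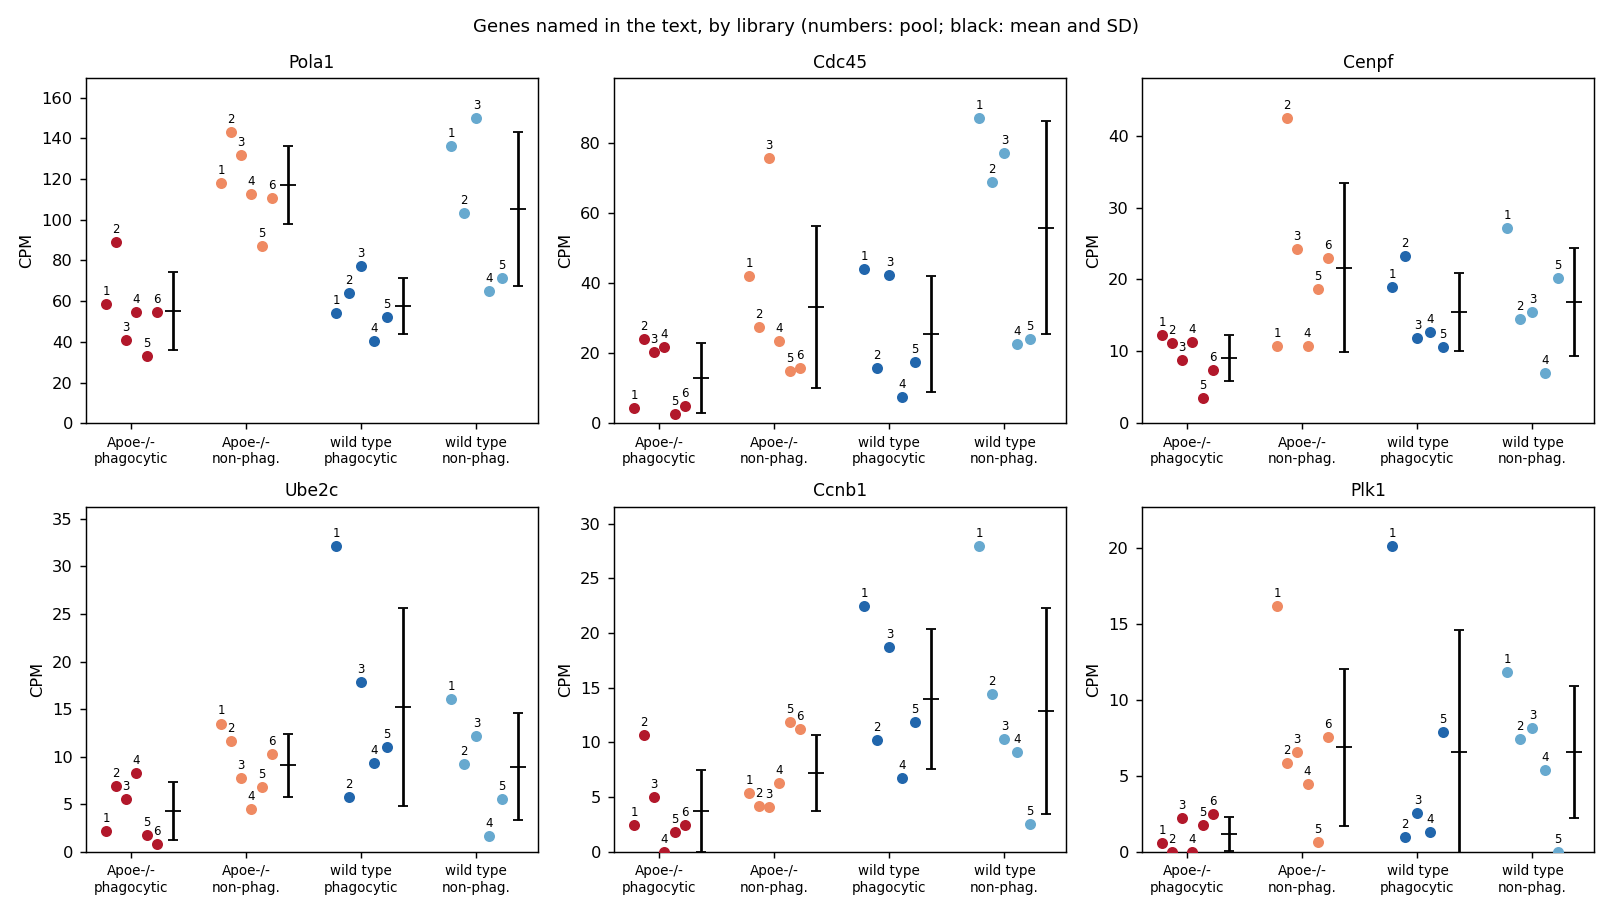
CPM (y axes) of 6 genes in each of the 22 libraries, by group, with pool numbers and mean and SD in black (SD bars end at 0). Most phagocytic libraries have less Pola1 than most non-phagocytic ones, with overlap in both genotypes, and Ube2c, Ccnb1 and Plk1 are highest or near highest in pool 1 of the wild type.

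Apoe-/- and wild-type cells were then compared within each sort. In phagocytic cells, all 25 mitosis genes had lower estimates in Apoe-/- than in wild-type libraries, with a median log2 fold change of -1.02, and 15 of 17 replication genes did, with a median of -0.52. With the filter and fit run on the phagocytic libraries alone, only 20 mitosis genes passed the filter, all lower (median -0.81). The replication median was then -0.50. The median of all genes tested was -0.004. None of the 43 passed edgeR's test, which called 0.0322% of all genes. At an unadjusted p under 0.05, 7 mitosis genes and 1 replication gene were lower, against 4.19% of all genes. DESeq2 called 0 and had 8 at that level. No member was without overlap, against 0.483% of all genes in the lower direction.

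The kinases, cyclins and partners led this comparison, with 10 of 10 lower and a median of -1.23. Ccnb1, the main mitotic B-type cyclin, had 0, 2.47 and 10.7 CPM in Apoe-/- phagocytic libraries, against 6.78, 10.2, 11.9, 18.7 and 22.4 CPM in wild-type phagocytic libraries. Apoe-/- pool 2, with 10.7 CPM, was the one library inside the wild-type range. Its log2 fold change was -1.85 ± 0.60 (edgeR adjusted p = 0.494).

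Ccnb2 was at 0 in Apoe-/- phagocytic pools 1, 4 and 6 and at most 2.76 CPM (5 reads) in the others, while wild-type pool 4 was also at 0, at -2.73 ± 0.93. Depth differed between these groups. Apoe-/- phagocytic pools 3 to 6 held 1131239 to 1642432 reads in annotated genes and pools 1 and 2 held 3643674 and 2265592. Wild-type phagocytic libraries held 2154319 to 3040008, so low counts are less certain in Apoe-/- pools 3 to 6. Ube2c had 0.828, 3.85 and 8.26 CPM in Apoe-/- phagocytic libraries, and wild-type pool 2 (5.74 CPM) alone lay within that range, at -1.82 ± 0.56. Plk1 was at -2.52 ± 0.95 and Cdca8, a subunit of the chromosomal passenger complex, at -1.64 ± 0.58. Neither Ccnb2 nor Plk1 passed the filter when it was run on the phagocytic libraries alone, so their large estimates rest on few reads. In the replication class Rrm2 led with -1.62 ± 0.68, followed by the helicase subunits Mcm4 (-0.66 ± 0.34) and Mcm3 (-0.63 ± 0.34).

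The mitotic difference was smaller without wild-type phagocytic pool 1. Then 20 of 25 mitosis genes were lower in Apoe-/- phagocytic cells and the median was -0.49, while the replication median was -0.55. The replication median was -0.30 without wild-type phagocytic pool 3. Mki67 was at -0.31 ± 0.52 with all libraries and at 0.29 without that pool. Stmn1 was at -0.61 ± 0.56 and Top2a at -0.96 ± 0.56. Monocyte markers moved with this comparison: 7 of 7 tested were lower in Apoe-/- phagocytic cells (median -1.78), and their sum was 105 to 345 CPM in Apoe-/- phagocytic and 160 to 1098 CPM in wild-type phagocytic libraries. Ly6c1 was at 0 in 13 of the 22 libraries. Border macrophage markers were lower in 5 of 7 cases (median -0.85). Rod markers were higher in 8 of 8 cases (median 0.64), with sums of 1503 to 7223 CPM in Apoe-/- phagocytic and 987 to 4536 CPM in wild-type phagocytic libraries. None of these markers was called, and their part in the result was not tested.

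In non-phagocytic cells the genotypes lay closer. Of the replication genes 15 of 17 were lower in Apoe-/- cells (median -0.16), and of the mitosis genes 16 of 25 (median -0.21), beside -0.002 for all genes. The replication count rested on single libraries: it was 8 of 17 without wild-type pool 2 (median 0.02) and 8 of 17 without the 2 Apoe-/- libraries richest in satellite-like reads (0.03), and 11 of 17 without wild-type pool 3 (-0.06), while without wild-type pool 4 the median was -0.34. None of the 43 passed edgeR's test, which called 0.0161% of all genes, and 0 had an unadjusted p under 0.05, by edgeR and by DESeq2, a level at which 2.03% of all genes were lower. No member was without overlap, against 0.193% of all genes in the lower direction. Kif20a was furthest, with 0, 2.93 and 9.17 CPM in Apoe-/- non-phagocytic libraries against 1.29, 1.61, 10.4, 12.2 and 21.6 CPM in wild-type non-phagocytic libraries (-1.41 ± 0.78). Its wild-type values split into 3 high pools and pools 4 and 5, which lay inside the Apoe-/- range. Top2a was at -0.85 ± 0.54, Ccnb1 at -0.82 ± 0.58 and Cdc45 at -0.74 ± 0.52. Monocyte markers were lower in Apoe-/- non-phagocytic cells in 6 of 7 cases (median -1.13) and rod markers higher in 8 of 8 (median 0.51), and their part in these differences was not tested.

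The sort effect of the genotypes was compared directly, as the log2 fold change with the sort in Apoe-/- cells minus that in wild-type cells. None of the 43 passed edgeR's test, and 0% of all genes did. 2 members had an unadjusted p under 0.05 by edgeR and by DESeq2, which called 0, against 1.3% of all genes in the lower direction. They were Ube2c (-1.84 ± 0.78) and Plk1 (-2.61 ± 1.27), and the Plk1 estimate rests on few reads. The median difference was -0.28 for replication genes and -1.01 for mitosis genes, and -0.24 and -0.63 without wild-type phagocytic pool 1. Leaving out 1 library at a time moved the replication median over -0.50 to -0.09, to -0.09 without wild-type phagocytic pool 3 or non-phagocytic pool 4 and to -0.50 without Apoe-/- phagocytic pool 3. Pola1 differed between the genotypes by -0.21 ± 0.34 and Cdc45 by -0.22 ± 0.75, so an unlike sort effect on these genes was not detectable, and intervals of this width do not show that it was alike.

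**Figure D4:**
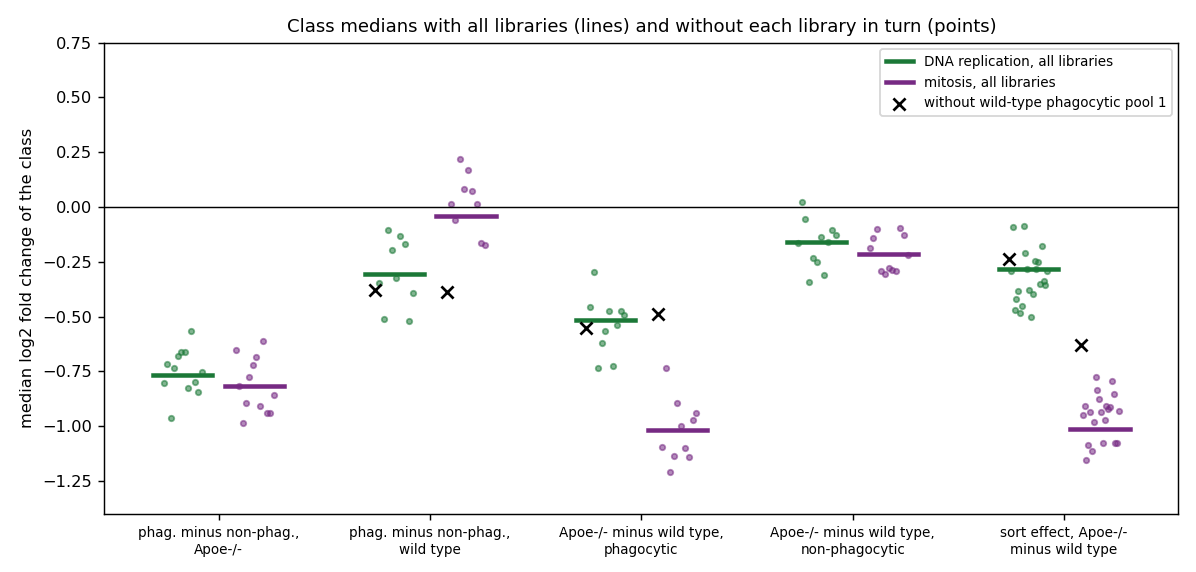
Median log2 fold change (y axis) of the replication and mitosis classes in each of the 5 comparisons (x axis). Lines use all libraries, each point leaves out 1 library of the groups compared, and crosses leave out wild-type phagocytic pool 1. Between the phagocytic genotypes the mitosis median is -1.02 with that pool and -0.49 without it, and the replication median is -0.52 with it and -0.55 without it.

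The class sums also moved with the microglia markers. Libraries with a low marker sum were mostly low in replication sum, in every group. The satellite-like share also differed between such libraries. Among wild-type non-phagocytic libraries it was 9.94% and 9.14% in pools 2 and 3, which had the highest marker and replication sums. It was 27.3% to 28.4% in pools 1, 4 and 5, and its part was not tested. Pool 4 of the wild type had marker sums of 3943 CPM (phagocytic) and 3920 CPM (non-phagocytic), with replication sums of 628 and 803 CPM. The same libraries had the highest monocyte marker sums, 1098 and 1179 CPM. Their part in the pool differences was not tested. The mitosis sums followed the markers less closely, with pool 1 of the wild type standing above libraries of like marker level (692 and 549 CPM at 7350 and 5699 CPM of markers). In the Apoe-/- sort comparison 7 of 9 microglia markers were lower too, with a median of -0.32, less than that of either cell cycle class.

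Markers of other myeloid cells moved with the sort in both genotypes. Of 9 dendritic cell markers tested, 8 were lower in phagocytic cells (medians -1.01 in Apoe-/- and -1.48 in wild type), and their sums were 51.3 to 149 CPM in Apoe-/- phagocytic and 98.2 to 205 CPM in Apoe-/- non-phagocytic libraries. In the wild type these sums were 37.4 to 231 CPM in phagocytic pools and 42.8 to 496 CPM in non-phagocytic libraries, with Clec9a at 0 in 9 of the 22 libraries. Border macrophage markers were higher in 7 of 7 cases in each genotype, with Pf4 and F13a1 called in both. In all, 2 of these markers were called in the wild type and 3 in Apoe-/- mice, against 0.209% and 0.467% of all genes. The part of dendritic cells and border macrophages in the cell cycle differences was not tested.

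**Figure D5:**
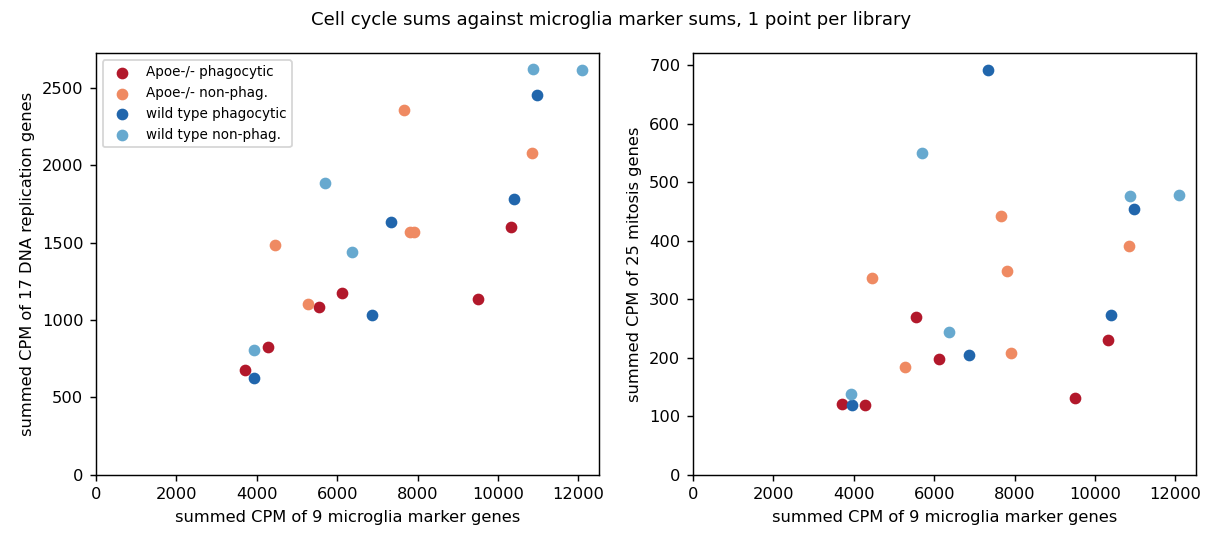
Summed CPM of the 17 replication genes (left) and the 25 mitosis genes (right) on the y axes against the summed CPM of 9 microglia markers (x axes), 1 point per library, coloured by group. Replication sums are low where marker sums are low, as in wild-type pool 4 (628 and 803 CPM), and wild-type pool 1 stands highest in mitosis (692 and 549 CPM).

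Other genes of the same processes were also mostly lower with the sort in Apoe-/- cells. Of 40 further replication genes, 37 were lower in Apoe-/- phagocytic than in Apoe-/- non-phagocytic cells (median -0.72, 18 at an unadjusted p under 0.05, 0 called by edgeR). Of all genes, 4.44% were lower at that level and 0.467% were called in either direction. Mcm10, which helps to start forks, had 8.40 ± 5.78 CPM in phagocytic pools and 27.1 ± 13.9 CPM in non-phagocytic libraries (-1.64 ± 0.44, edgeR adjusted p = 0.108). Of 43 further mitosis genes tested, 39 were lower (median -0.80, 16 at that level, 0 called). Kif15, a spindle motor, had 8.52 ± 1.48 CPM in phagocytic pools and 23.9 ± 8.89 CPM in non-phagocytic libraries (-1.49 ± 0.39, edgeR adjusted p = 0.101).

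In the wild type the further genes were lower in 36 of 40 replication cases (median -0.37) and 34 of 43 mitosis cases (median -0.33), again with 0 called. The 25 listed mitosis genes had no such common direction (median -0.04). At an unadjusted p under 0.05 by edgeR, 5 further mitosis genes and 0 further replication genes were lower, against 3.14% of all genes. Spc25, a subunit of the kinetochore's NDC80 complex, was furthest there, with 0, 0.847, 2.20, 2.87 and 5.52 CPM in wild-type phagocytic and 6.44, 9.13, 12.6, 15.1 and 18.1 CPM in wild-type non-phagocytic libraries. These groups do not overlap, and the log2 fold change of -2.40 ± 0.72 had an edgeR adjusted p of 0.237. Between phagocytic cells of the genotypes, 33 of 43 further mitosis genes were lower in Apoe-/- cells with a median of -0.41, smaller than the -1.02 of the 25 listed genes. Of the further replication genes 34 of 40 were lower there (median -0.47), so the further lists did not show the larger mitotic difference of the listed genes. For the sort effect in Apoe-/- minus wild-type cells, the further medians were -0.33 (replication) and -0.35 (mitosis). The listed genes had -0.28 and -1.01. In non-phagocytic cells the further genes had no common direction, with 24 of 40 replication and 22 of 43 mitosis genes lower in Apoe-/- cells.

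Genes upstream of S phase were mostly lower as well. Of 10 genes that act before S phase (the D-type cyclins, Cdk2, Cdk4 and Cdk6, E2f3, E2f4, Myc, and Csf1r, a growth factor receptor that is also among the microglia markers), 9 were lower in Apoe-/- phagocytic than in Apoe-/- non-phagocytic cells (median -0.58, 0 called). Cdk6, the kinase that pairs with D-type cyclins, had 80.5 ± 12.2 CPM in phagocytic pools and 140 ± 16.6 CPM in non-phagocytic libraries, groups that do not overlap (-0.80 ± 0.20, edgeR adjusted p = 0.0831). In phagocytic cells all 10 were lower in Apoe-/- than in wild-type libraries (median -0.35), led by the D-type cyclin gene Ccnd3 at -0.80 ± 0.21 (edgeR adjusted p = 0.313). Of 12 inhibitors and brakes of the cycle tested, 9 were lower in Apoe-/- phagocytic cells, and Btg2, an antiproliferative gene, fell. Btg2 had 89.4, 136 and 200 CPM in Apoe-/- phagocytic and 276, 357 and 460 CPM in Apoe-/- non-phagocytic libraries, which do not overlap. Its log2 fold change was -1.34 ± 0.25 (edgeR adjusted p = 0.0125), and in the wild type it was -0.87 ± 0.27 and missed the threshold (edgeR adjusted p = 0.298).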

How the data were processed

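The deposited files list 116248 transcripts per library with an estimated count, a TPM and their lengths, per the file headers. The submitters' processing notes name mm10 and, in no stated role, DESeq2 1.30.1, R 4.0.3 and Salmon 1.4.0. Salmon shares reads among like transcripts, so near-identical genes and transcripts are uncertain. Transcripts were matched to GENCODE M21 (GRCm38), and 176 unmatched ones, with 0.118% to 0.262% of reads, were left out. The deposited FPKM table, which per its header was made with SMART-Seq2, was not used.

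Estimated counts were summed per gene, rounded and tested with edgeR 4.0.16 in R 4.3.3 (quasi-likelihood, TMM, filterByExpr, 1 fit over 22 libraries and 4 groups). Benjamini-Hochberg adjustment ran over 12415 genes in each of 5 comparisons, with a threshold of 0.05, and the common biological coefficient of variation was 0.426. Replicates are separate pools, whose counts differed beyond sampling noise within every group (chi-square per degree of freedom 6.43 to 57.8). Alternatives were DESeq2 1.42.0, other filters and scalings, a replicate block, length-scaled counts, coding transcripts only and leaving out libraries. The fit was tested on simulated data.

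The members, gene lists and tests were chosen with earlier results of these data known, so directions already seen are not independent support. Genes named in the text were, per comparison, the 3 of each class with the smallest p, plus Mki67, Top2a and Stmn1; in other lists, genes called and otherwise up to 3 with the smallest p; and a few more members chosen after their values were seen. Depth sets counting precision only, since no molecular identifiers part PCR copies. 1 marker gene is not reported here and was left out of its list's sums.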

Additional observations from a re-analysis of the deposited data

Results flagged for a closer look

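The ratio of the replication sum to the mitosis sum was 3.43 in wild-type non-phagocytic pool 1, far below the nearest of the other 4 libraries of its group (5.48), a gap of 0.827 of the group's range. It was the 1 value found among 80 groups of libraries (20 quantities in 4 groups), where chance alone gives about 1 in 20 groups. The phagocytic library of the same pool number had 2.36, the lowest of all 22.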

How the results depend on the processing

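Called genes numbered 26 with the sort in the wild type, 58 with the sort in Apoe-/- cells, 4 between phagocytic and 2 between non-phagocytic genotypes, and 0 for the genotype difference in the sort effect. DESeq2 gave 103 and 168 with the sort in the wild type and in Apoe-/- cells, 19 between phagocytic genotypes and 2 for the difference. Without a filter on low counts the counts were 122, 137, 96, 16 and 17. Fitting only the phagocytic groups gave 2, and coding transcripts only, chosen after seeing the data, gave 38 with the sort in Apoe-/- cells, 1 between phagocytic and 1 between non-phagocytic genotypes. Without the 2 libraries over 40% satellite-like reads, 16 were called with the sort in Apoe-/- cells. Members called there numbered 0 in that fit, with length-scaled counts (Pola1 adjusted p = 0.0574, over alternatives 0.000926 to 0.224) and with coding transcripts only. Leaving out 1 library gave 10 to 64 genes with the sort in the wild type, 21 to 70 in Apoe-/- cells (members 0 to 1) and 3 to 23 between phagocytic genotypes. Mki67 between phagocytic genotypes ran over -0.59 to 0.29, turning to 0.29 without wild-type phagocytic pool 1, and Mcm5 between non-phagocytic genotypes turned to 0.04 without the libraries rich in satellite-like reads. The labels do not say whether same-numbered pools of the sorts share retinas. Same-numbered sorts correlated by 0.04 to 0.423 in the wild type and 0.063 to 0.214 in Apoe-/- mice. Apoe-/- phagocytic pools 1, 2, 4, 5 and 6 and wild-type phagocytic pools 4 and 5 correlated best with the non-phagocytic library of their own number. The other phagocytic pools correlated best with another number. With the pool number as a replicate block, genes called were 135 with the sort in the wild type (1 member, Pola1), 256 in Apoe-/- cells (6 members: Rrm2, Mcm3, Mcm6, Mcm7, Cdc45 and Pola1) and 7 between phagocytic genotypes, and Mki67 there was at 0.03. Class medians under the other alternatives kept their sign with the sort in Apoe-/- cells (-0.95 to -0.74 for replication, -0.97 to -0.79 for mitosis) and between phagocytic genotypes (-0.73 to -0.39 and -1.21 to -0.71). The mitosis median with the sort in the wild type lay at -0.10 to 0.10 and the replication median between non-phagocytic genotypes at -0.34 to 0.03, and at -0.39 to 0.22 and -0.34 to 0.02 when 1 library was left out. The causes were not tested. Depth limits the mitosis genes most, at a median of 17.7 reads per library.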
